A study of Mus musculus with 9 samples.

Results

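Fatty acid synthesis and desaturation was followed through 10 listed genes: Acaca, Acly, Fasn, Scd1, Scd2, Elovl6, Fads1, Fads2, Acss2 and Me1. A gene was taken by its symbol in the array's annotation, using its brightest feature by mean, and 9 of the 10 were found among 19505 genes. Scd2 was not analysed here. The cells were 3LL, a GFP-labelled Lewis lung carcinoma (LLC) line of C57/BL6 origin per the labels, so all groups share 1 tumour line and its label. Dish samples (n = 3) were cultured for 7 days as a monolayer. Subcutaneous and lung samples (n = 3 each) are GFP-positive cells recovered 7 days after transplantation under the skin or into the lung. The series text calls the lung arm "BLM lungs" without spelling out BLM, and the labels give neither the number nor the age of the animals. No label ties the samples to separate cultures or animals, so a p-value here reflects how far these samples vary, and that variation could be technical. The comparisons ask how the place of growth goes with expression of the pathway. Whatever BLM denotes comes with the lung arm, so in every lung comparison it cannot be told apart from the site.

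Cells build fatty acids from citrate exported by mitochondria. ATP citrate lyase (Acly) splits the citrate into acetyl-CoA, acetyl-CoA carboxylase (Acaca) makes malonyl-CoA, and fatty acid synthase (Fasn) joins these units into palmitate with NADPH that malic enzyme (Me1) helps to supply. Elovl6 lengthens palmitate, Scd1 puts in the first double bond, and the front-end desaturases Fads1 and Fads2 make polyunsaturated chains from dietary precursors. Most of these genes are classical targets of the SREBP transcription factors, which also drive cholesterol synthesis.

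RefSeq promoter windows (build GRCm38.p6, from 250 bases before to 50 bases after the annotated start) were matched by symbol for 7 of the 10 genes, as 8 windows, since Me1 has a pair. Those of Fasn, Fads2, Acly and Elovl6 are shown because these genes followed different courses across the groups described further on. All run 5′ to 3′ on the gene's strand, in lower case, and capitals mark a CCAAT box (CCAAT) or a GC box (GGGCGG) on either strand, where adjoining matches merge or overlap. They lie at chr11:120824498-120824797 (minus strand), chr19:10101454-10101753 (minus strand), chr11:100527951-100528250 (minus strand) and chr3:129532136-129532435 (plus strand).
Fasn: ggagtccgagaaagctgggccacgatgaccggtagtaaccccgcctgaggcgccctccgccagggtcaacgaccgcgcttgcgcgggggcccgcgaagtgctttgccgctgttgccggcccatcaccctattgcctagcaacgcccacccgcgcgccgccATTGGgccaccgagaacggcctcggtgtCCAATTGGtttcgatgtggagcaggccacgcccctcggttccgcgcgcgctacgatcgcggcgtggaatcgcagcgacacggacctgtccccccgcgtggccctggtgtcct
Fads2: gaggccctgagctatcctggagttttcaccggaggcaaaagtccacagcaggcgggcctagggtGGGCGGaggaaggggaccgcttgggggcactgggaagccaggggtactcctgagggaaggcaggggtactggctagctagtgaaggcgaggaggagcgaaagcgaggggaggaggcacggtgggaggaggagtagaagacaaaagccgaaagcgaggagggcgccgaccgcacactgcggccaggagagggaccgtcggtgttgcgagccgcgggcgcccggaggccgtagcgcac
Acly: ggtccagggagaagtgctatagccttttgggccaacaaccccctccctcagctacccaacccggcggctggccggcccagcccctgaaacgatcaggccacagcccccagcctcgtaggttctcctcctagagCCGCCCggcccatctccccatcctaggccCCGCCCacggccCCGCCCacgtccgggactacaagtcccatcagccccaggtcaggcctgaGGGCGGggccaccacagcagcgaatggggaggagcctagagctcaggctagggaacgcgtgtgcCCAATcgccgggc
Elovl6: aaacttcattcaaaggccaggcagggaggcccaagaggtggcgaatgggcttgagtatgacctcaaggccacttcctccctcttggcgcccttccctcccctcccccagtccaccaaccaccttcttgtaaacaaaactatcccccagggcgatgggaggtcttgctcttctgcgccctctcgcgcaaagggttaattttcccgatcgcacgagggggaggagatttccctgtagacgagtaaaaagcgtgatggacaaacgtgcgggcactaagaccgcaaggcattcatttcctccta
The Fasn window held 3 CCAAT matches, beginning 90, 62 and 59 bases before the start, and the last pair overlap. The Fads2 window held 1 GC box, 186 bases before the start. The Acly window held GC boxes 117, 88, 76 and 27 bases before the start and a CCAAT match 37 bases after it, while the Elovl6 window held neither motif. Over the 8 windows, 4 held a CCAAT box and 4 a GC box, against 37.4% and 35.7% of all 32851 windows. The letters TCACNCCAC, a form of the sterol regulatory element, and the E-box CACGTG were in 0 of the 8 windows on either strand, against 1.24% and 7.15% of all windows. These are matches of letters in a short window and say nothing about binding.

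The values are log2 signals as deposited, given for replicates 1, 2 and 3 in that order and summarised as mean ± SD (n = 3). A gene was called at a Benjamini-Hochberg adjusted p under 0.05 in limma, over all 19505 genes. The 90th percentile of the negative control features (7.20 to 7.73 by array) served as a guide to background, and 28.0% to 34.4% of genes exceeded it. Arrays of 1 group correlated at 0.980 to 0.991 across genes, and arrays of different groups at 0.958 to 0.977. Lung replicates 1 and 2 stood apart in the mean of 37 measured genes with very long mRNAs. This mean was 8.84 and 9.06 there and 7.62 on lung replicate 3. It was 7.27 to 7.67 on the subcutaneous arrays and 7.09 to 7.41 on the dish arrays. The shift covered most of the list but not all of it. Between lung and subcutaneous cells 29 of the 37 differences were positive (median 0.79, against -0.07 for all genes). Of the 37, 14 were called higher, 1 lower and 22 not, against 15.0% of all genes called. Fasn and Acaca also have long mRNAs. Counts of calls in the pathway lists that involve the lung arrays are therefore given as well from lung replicate 3 without the other lung arrays, where that array is assumed to vary like the rest. The long-mRNA level was also entered as a covariate. Since it is highest on lung replicates 1 and 2, it partly stands for the lung group. A lung call lost with this covariate therefore cannot separate the long-mRNA level from the site. Signals of different genes were not compared with each other, since features differ in how strongly they bind.

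**Figure D1:**
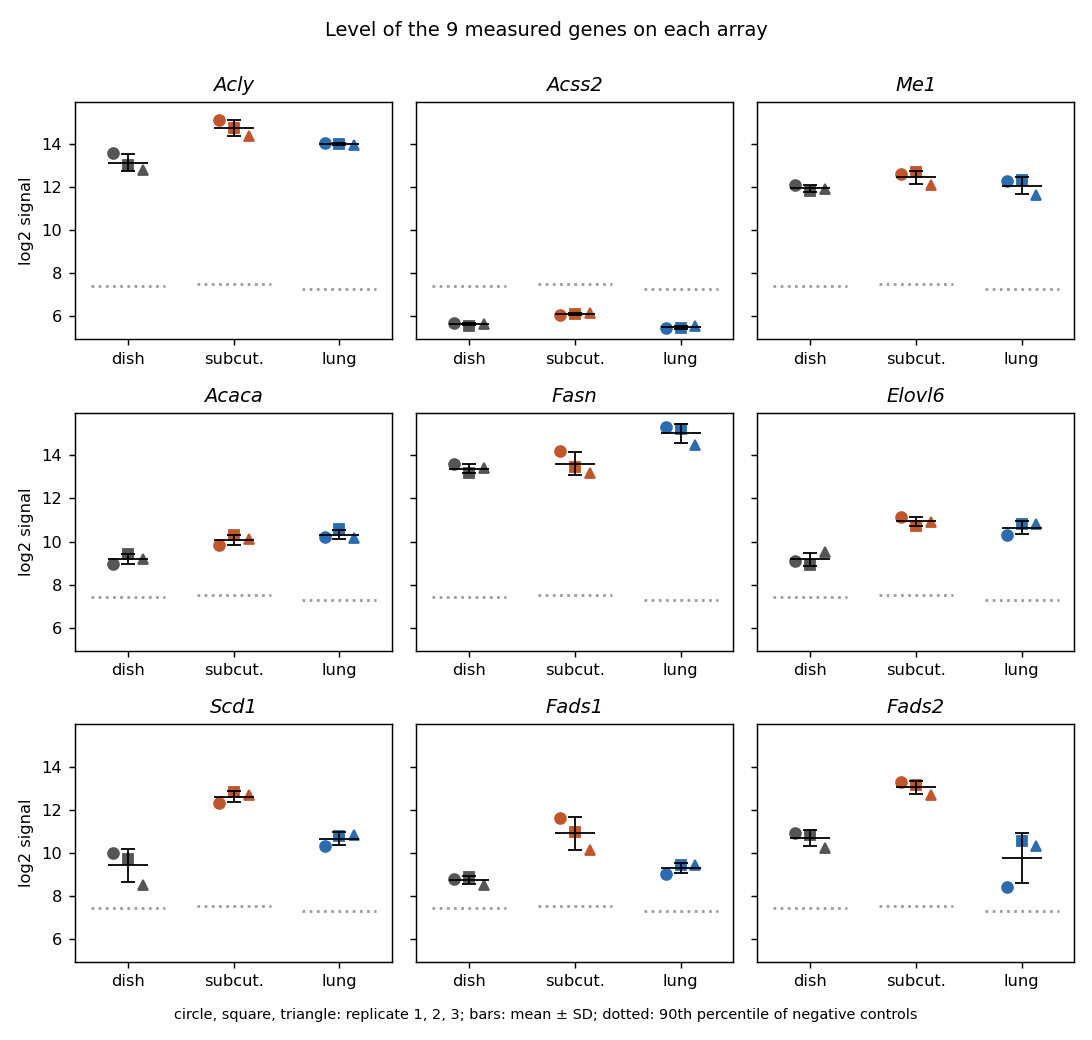
Log2 signal of the 9 measured genes on each of the 9 arrays (vertical axis) by group (horizontal axis), with replicates 1, 2 and 3 as circle, square and triangle, bars for mean ± SD (n = 3) and dotted lines for the mean 90th percentile of negative controls. Scd1, Fads1 and Fads2 were highest on the subcutaneous arrays, Fasn was highest on the lung arrays, and Acss2 lay below the dotted line on all 9.

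The desaturases were highest under the skin. Scd1, which makes oleate and palmitoleate, read 9.98, 9.72 and 8.52 on the dish arrays, 12.31, 12.84 and 12.68 on the subcutaneous arrays and 10.30, 10.79 and 10.84 on the lung arrays. The 3 groups did not overlap, and dish replicate 3 lay well under the other dish arrays. Scd1 rose by 3.20 (SE 0.35, adjusted p = 7.81e-05), or 9.21-fold, from dish to subcutaneous cells. In lung cells it was lower than in subcutaneous cells (-1.97, SE 0.35, adjusted p = 0.00268). From dish to lung it differed by 1.24 (SE 0.35, adjusted p = 0.0509), just short of a call, which it reached without dish replicate 1 (adjusted p = 0.032), with a filter on dim genes (0.0283), with an intensity trend and robust fitting (0.0323) and with array weights (0.0329).

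Fads2, the delta-6 desaturase that opens the polyunsaturated pathway, showed the largest difference between the transplant sites among the 9 genes. It read 10.93, 10.84 and 10.24 in dish cells, 13.28, 13.14 and 12.69 in subcutaneous cells and 8.43, 10.53 and 10.31 in lung cells. Subcutaneous arrays lay above all others, whereas dish and lung arrays overlapped and lung replicate 1 was the lowest of the 9. Fads2 rose from dish to subcutaneous cells by 2.37 (SE 0.45, adjusted p = 0.00363). It was lower in lung than in subcutaneous cells (-3.28, SE 0.45, adjusted p = 0.000617), a 9.72-fold difference, and -2.73 on lung replicate 3 taken alone (adjusted p = 0.00815). The difference of -0.91 between lung and dish did not pass (95% interval -1.89 to 0.06, adjusted p = 0.262), and it depended on lung replicate 1: it was -0.25 without that array and -0.36 on lung replicate 3 taken alone.

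Fads1, the delta-5 desaturase of the same pathway, lies beside Fads2 and Fads3 in the genome. Its signals were 8.77, 8.86 and 8.52 in dish cells, 11.61, 10.98 and 10.11 in subcutaneous cells and 8.99, 9.42 and 9.45 in lung cells. The groups did not overlap, and the subcutaneous arrays were the most spread (SD 0.75). Fads1 rose by 2.18 (SE 0.33, adjusted p = 0.000804) from dish to subcutaneous cells and was lower in lung than in subcutaneous cells (-1.61, SE 0.33, adjusted p = 0.00634). Lung and dish did not differ beyond the threshold (0.57, 95% interval -0.15 to 1.29, adjusted p = 0.344). On lung replicate 3 taken alone, the differences from subcutaneous cells were -1.77 for Scd1 (adjusted p = 0.0972) and -1.45 for Fads1 (adjusted p = 0.153), close to the full values but not called. With the long-mRNA level as a covariate they were not called either (adjusted p = 0.0605 and 0.14).

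Fasn took another course and was highest in the lung. The synthase read 13.58, 13.17 and 13.43 in dish cells, 14.22, 13.46 and 13.18 in subcutaneous cells and 15.34, 15.22 and 14.50 in lung cells. Every lung array lay above every other array, while dish and subcutaneous arrays overlapped. Fasn was higher in lung than in dish cells by 1.63 (SE 0.31, adjusted p = 0.00843), or 3.09-fold, and higher than in subcutaneous cells by 1.40 (SE 0.31, adjusted p = 0.00966). Subcutaneous and dish cells differed by 0.23 (95% interval -0.45 to 0.90, adjusted p = 0.714). The lung arrays with the highest Fasn were also those with the high long-mRNA level, and the part this plays was not tested. On lung replicate 3 taken alone, Fasn was 1.11 above dish cells (adjusted p = 0.276) and 0.88 above subcutaneous cells (adjusted p = 0.331). With the long-mRNA level as a covariate neither difference passed (adjusted p = 0.439 and 0.328), and without lung replicate 1 the call against subcutaneous cells was lost (adjusted p = 0.0541).

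**Figure D2:**
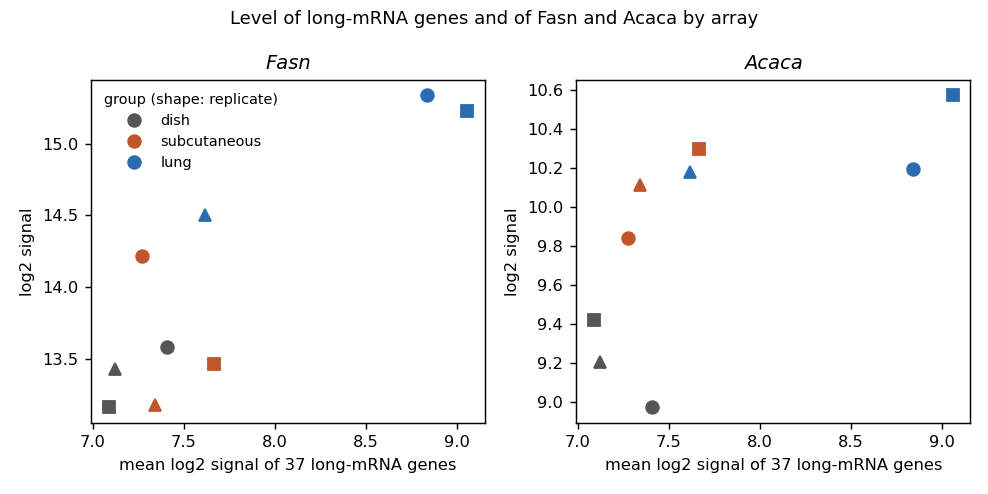
Log2 signal of Fasn (left) and Acaca (right) on each array (vertical axes) against the mean log2 signal of 37 long-mRNA genes on the same array (horizontal axes), with colour for group and shape for replicate. Lung replicates 1 and 2 lie far to the right, at 8.84 and 9.06, and lung replicate 3, at 7.62, still shows Fasn at 14.50, above the highest array of the other groups at 14.22.

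Acaca, the carboxylase that commits acetyl-CoA to fatty acids, was higher in both transplanted groups than in the dish. Its signals were 8.97, 9.42 and 9.21 in dish cells, 9.84, 10.30 and 10.11 in subcutaneous cells and 10.20, 10.57 and 10.18 in lung cells. Every transplanted array lay above the dish arrays, and the transplanted groups overlapped. Acaca rose by 0.88 (SE 0.24, adjusted p = 0.0286) under the skin and by 1.12 (SE 0.24, adjusted p = 0.0153) in the lung, and the sites differed by 0.23 (95% interval -0.29 to 0.76, adjusted p = 0.571). Both calls were narrow, and with RIN, the RNA integrity number of each sample, as a covariate neither held (adjusted p = 0.229 and 0.0538). The subcutaneous rise was lost without dish replicate 1 (adjusted p = 0.097), dish replicate 3 (0.0724), subcutaneous replicate 2 (0.0961) or subcutaneous replicate 3 (0.0664), and the lung rise without dish replicate 1 (0.0514), dish replicate 3 (0.0521), lung replicate 2 (0.0667) or lung replicates 1 and 2 (0.241). The lung rise was also lost after quantile normalization (0.0747), with equal medians (0.0553) and with the long-mRNA covariate (0.394).

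Elovl6, the elongase that turns palmitate into stearate, rose at both sites as well. It read 9.11, 8.92 and 9.52 in dish cells, 11.16, 10.71 and 10.92 in subcutaneous cells and 10.31, 10.81 and 10.82 in lung cells. The dish arrays were all lower than the transplanted ones, which overlapped each other. The rise from dish was 1.75 (SE 0.26, adjusted p = 0.000658) in subcutaneous cells and 1.46 (SE 0.26, adjusted p = 0.00547) in lung cells. The lung rise was 1.63 on lung replicate 3 taken alone (adjusted p = 0.061), and it was not called with the long-mRNA covariate (0.0921). The sites differed by -0.29 (95% interval -0.84 to 0.27, adjusted p = 0.508).

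Acly, the source of cytosolic acetyl-CoA, was highest under the skin. Its signals were 13.59, 13.05 and 12.81 in dish cells, 15.14, 14.75 and 14.38 in subcutaneous cells and 14.05, 13.99 and 13.96 in lung cells. The 3 groups did not overlap, with the lung in the middle and its arrays close together (SD 0.045). Acly rose by 1.61 (SE 0.27, adjusted p = 0.00163), or 3.05-fold, from dish to subcutaneous cells. The lung lay 0.85 above the dish (SE 0.27, adjusted p = 0.0813) and 0.75 below subcutaneous cells (a difference of -0.75, SE 0.27, adjusted p = 0.0826), neither of them called. The difference between lung and dish passed without dish replicate 1 (adjusted p = 0.047), with the filter on dim genes (0.0385), with an intensity trend and robust fitting (0.0303) and with array weights (0.0187). That between the sites passed with equal medians (0.0212), the filter (0.0405) and the trend with robust fitting (0.0331).

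Me1, the malic enzyme, varied little. It read 12.12, 11.82 and 11.94 in dish cells, 12.60, 12.69 and 12.12 in subcutaneous cells and 12.29, 12.33 and 11.63 in lung cells. The lowest subcutaneous array was level with the highest dish array, and the rise was not called (0.51, 95% interval -0.06 to 1.09, adjusted p = 0.254), and the lung arrays overlapped both groups. Acss2, which makes acetyl-CoA from acetate, was not well above background on any array. It read 5.69, 5.58 and 5.66 in dish cells, 6.05, 6.11 and 6.14 in subcutaneous cells and 5.46, 5.46 and 5.57 in lung cells, so no fold change is given for it.

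**Figure D3:**
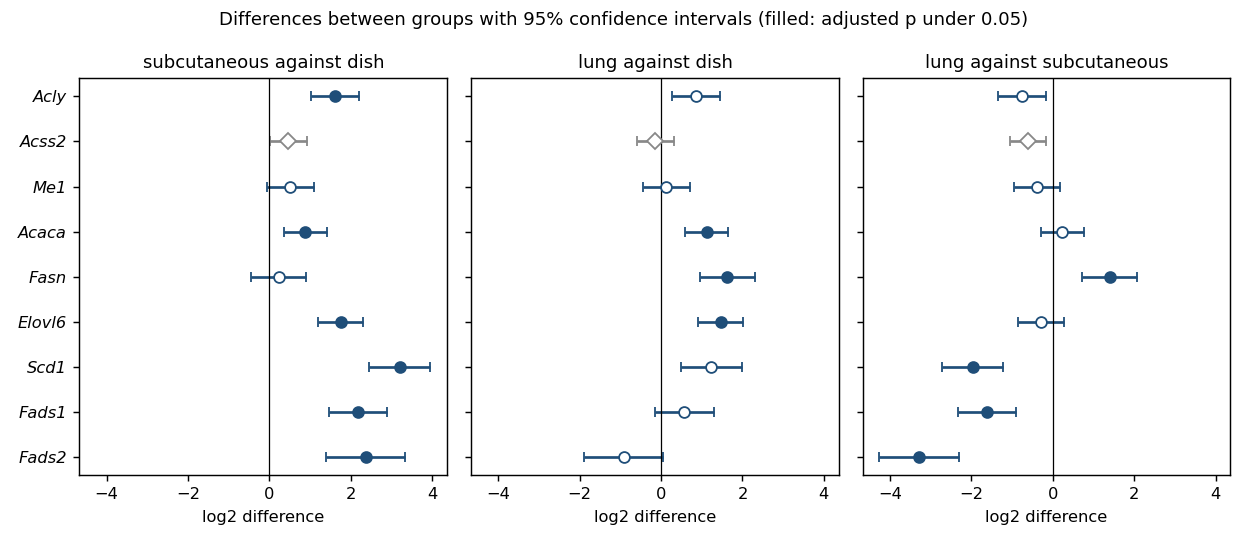
Log2 difference (horizontal axis) of each measured gene (vertical axis) in the 3 comparisons, with 95% confidence intervals from limma, filled symbols for adjusted p under 0.05 and grey diamonds for Acss2, which was below background. Scd1, Fads1 and Fads2 lie to the right against the dish under the skin and to the left between lung and subcutaneous cells, where Fasn alone is called to the right.

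By count, 6 of the 9 genes rose from dish to subcutaneous cells (Acaca, Acly, Scd1, Elovl6, Fads1 and Fads2) and 0 fell. Over all genes 12.9% were called in this comparison, 6.41% higher and 6.47% lower. With a filter on dim genes 2528 of the 6667 genes kept were called. The median difference of the 9 was 1.61, against -0.01 for all genes. By limma 0 of the 9 were lower at an unadjusted p under 0.05. Leaving out any 1 array left 5 or 6 called, and the count was 6 without lung replicates 1 and 2.

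From dish to lung cells, 3 of the 9 rose (Acaca, Fasn and Elovl6) and 0 fell, with 5 higher and 0 lower at an unadjusted p under 0.05 in limma. Of all genes 6.78% were called, 4.81% higher and 1.97% lower. Other settings called more: 1530 of 6667 genes with a filter on dim genes, and 3039 of 19505 with array weights. With an intensity trend and robust fitting 1528 of 19505 were called. The median of the 9 was 0.85, against -0.07 for all genes. The count was 5 with a filter on dim genes, with array weights or with an intensity trend and robust fitting. It was 2 without dish replicate 3 or lung replicate 2, and 0 either with the long-mRNA covariate or on lung replicate 3 taken alone.

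Between the sites, 3 of the 9 were lower in lung than in subcutaneous cells (Scd1, Fads1 and Fads2) and 1 was higher (Fasn). Of all genes 15.0% were called, 9.21% higher and 5.79% lower. Other settings called more: 2646 of 6667 genes with the filter on dim genes, and 3324 of 19505 with equal medians. With the intensity trend and robust fitting 3138 of 19505 were called, and with array weights 3824. The median of the 9 was -0.61, against -0.07 for all genes. The count was 6 with equal medians, which added Acly and Acss2, and 5 with the filter on dim genes, the intensity trend with robust fitting or array weights. It was 3 without lung replicate 1, which removed Fasn. It was 1, Fads2, on lung replicate 3 taken alone or with the long-mRNA covariate. The comparisons share groups, so their counts are not independent of each other. The share of higher calls over all genes depended on scaling. For lung against subcutaneous it was 61.4% as deposited, 54.1% after quantile normalization and 38.4% after setting the medians of genes above background equal. For lung against dish it was 71.0%, 54.8% and 42.5%. The last setting moved the median of all genes from -0.07 to -0.28 for lung against subcutaneous and from -0.07 to -0.29 for lung against dish. Among the 9 genes, these scalings turned the sign of Me1 between lung and dish and of no other difference.

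The counts of the lists that follow stand beside the same shares of all genes called, 12.9% from dish to subcutaneous cells, 6.78% from dish to lung and 15.0% between the sites. Of 11 measured genes of acetyl-CoA and NADPH supply, 3 rose and 0 fell from dish to subcutaneous cells (median 0.27). Cytosolic isocitrate dehydrogenase Idh1, an NADPH source, rose by 3.03 (adjusted p = 0.000145). The mitochondrial citrate carrier Slc25a1 rose by 1.85 (adjusted p = 0.00901) and the mitochondrial dehydrogenase Idh2 by 1.00, a call lost without dish replicate 3 (adjusted p = 0.0899) or subcutaneous replicate 1 (0.068). In lung cells Idh1 was lower than in subcutaneous cells (-2.47, adjusted p = 0.000906, and -1.99 on lung replicate 3 taken alone, adjusted p = 0.043). Slc25a1 was lower too (-1.69, adjusted p = 0.0148), but not without subcutaneous replicate 1 (adjusted p = 0.056), lung replicate 1 (0.0764) or lung replicates 1 and 2 (0.354). Pgd, an NADPH-making enzyme of the pentose phosphate pathway, was higher in lung cells (1.38, adjusted p = 0.0104, and 0.0893 without lung replicates 1 and 2), and these 3 are all the calls between the sites. From dish to lung 1 of 11 rose, Idh2 (1.39, adjusted p = 0.00723, and 0.167 without lung replicates 1 and 2). The long-mRNA covariate ended the calls of Slc25a1 and Pgd between the sites and of Idh2 from dish to lung (adjusted p = 0.376, 0.0524 and 0.257). With lung replicate 3 alone, the list had 1 call between the sites, Idh1, and 0 from dish to lung.

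Of 19 measured genes of lipogenic control, 1 rose and 1 fell from dish to subcutaneous cells, 0 were called from dish to lung by limma (3 higher and 1 lower at an unadjusted p under 0.05) and 1 was higher and 1 lower between the sites. The medians were 0.04, 0.06 and 0.01, and 12 of the 19 exceeded the background guide on any array. Insig1, an SREBP target whose product holds the SREBP complex in the endoplasmic reticulum, rose by 1.21 under the skin (adjusted p = 0.018) from a level below background in the dish, so the bound is at least 1.02. It was lower in lung than in subcutaneous cells (-1.18, adjusted p = 0.0198). The rise was lost with RIN as a covariate (adjusted p = 0.144) and without dish replicate 1 (0.0596), dish replicate 3 (0.0541) or subcutaneous replicate 2 (0.0756). The difference between the sites was lost without subcutaneous replicate 2 (0.0737), lung replicate 1 (0.0998) or lung replicates 1 and 2 (0.366). Scap, the escort protein of SREBP, was higher in lung than in subcutaneous cells (1.56, adjusted p = 0.00909, and 0.244 without lung replicates 1 and 2), and with the long-mRNA covariate neither it nor Insig1 was called between the sites (0.332 and 0.373). Nr1h3, which encodes the sterol-sensing receptor LXR alpha, fell under the skin with signals below background in both groups. Without subcutaneous replicate 2, the list had 0 calls from dish to subcutaneous cells, and with lung replicate 3 alone it had 0 between the sites. Srebf1 was not analysed here.

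SREBP factors also drive cholesterol synthesis, and their part in these data was not tested. Cholesterol synthesis and uptake genes showed the most calls of the lipid lists. Of 17 measured, 14 rose and 0 fell from dish to subcutaneous cells, with a median of 2.24 (13 to 15 called when any 1 array was left out). Squalene synthase Fdft1 rose by 3.73 (adjusted p = 9.53e-06), the sterol oxidase Msmo1 by 3.52 (adjusted p = 0.000135), the reductase Dhcr7 by 3.24 (at least 2.04, adjusted p = 0.000583) and farnesyl diphosphate synthase Fdps by 3.07 (adjusted p = 0.000537). Between the sites 10 were lower in lung cells and 1 was higher (median -1.24), and without lung replicate 1 the total was 7. On lung replicate 3 taken alone 3 were lower and 1 higher, and with the long-mRNA covariate 3 were called. The lanosterol demethylase Cyp51 was lower by the widest margin (-3.03, adjusted p = 0.000327). The exception was the isomerase Ebp (2.07, adjusted p = 0.00753). From dish to lung 7 rose and 0 fell (median 1.15), a count that was 0 without dish replicate 2, without dish replicate 3 or after quantile normalization, 2 after the equal-median scaling, 1 without lung replicate 3 and 7 without lung replicates 1 and 2. It was also 3 without dish replicate 1, 4 without subcutaneous replicate 2 or with the long-mRNA covariate, and 2 without lung replicate 2.

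**Figure D4:**
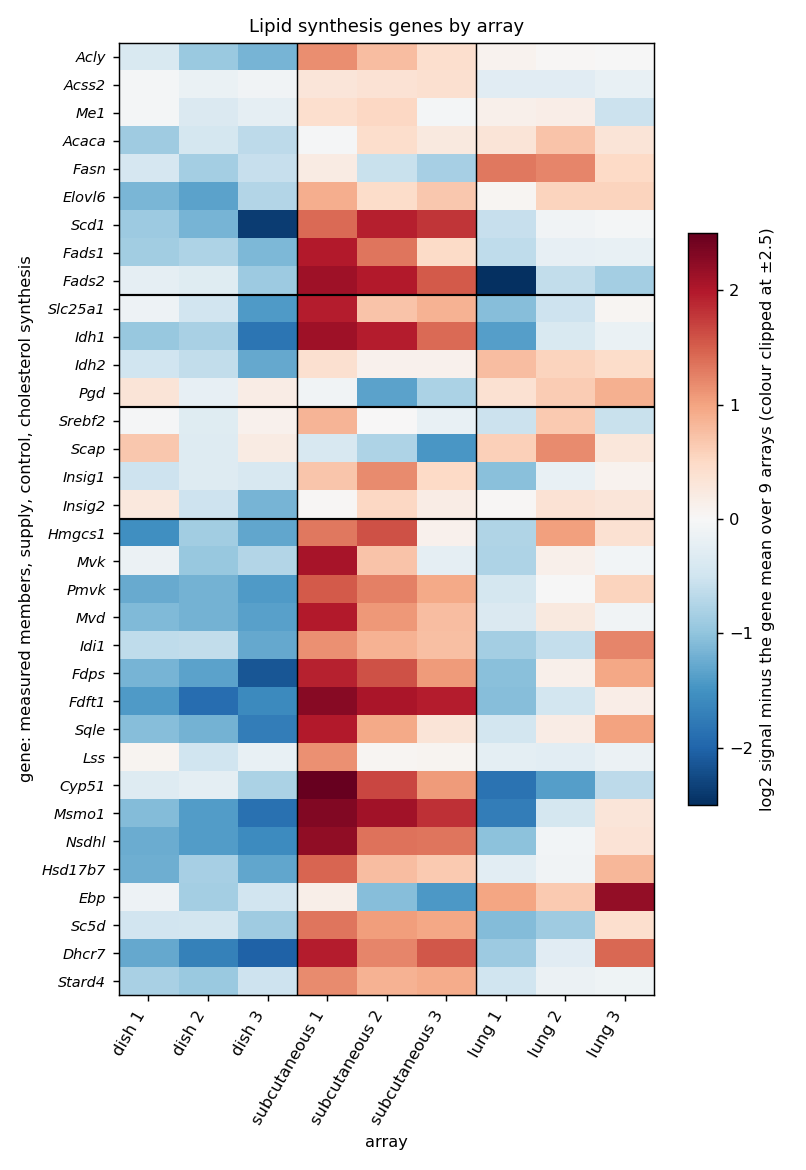
Log2 signal minus each gene's mean over the 9 arrays (colour, clipped at 2.5 either way) for the measured genes, 4 supply genes, 4 regulators and the cholesterol synthesis list (rows) on each array (columns). The subcutaneous columns are red for Scd1, Fads1, Fads2, Slc25a1, Idh1 and most cholesterol genes, while Fasn is reddest on lung replicates 1 and 2.

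The other desaturases, elongases and their partners were mixed. Of 18 measured, 3 rose and 1 fell from dish to subcutaneous cells, 3 rose and 0 fell from dish to lung, and 2 were higher and 1 lower in lung than in subcutaneous cells (medians -0.22, 0.00 and 0.04). Elovl5, the elongase that works between Fads2 and Fads1, rose by 2.00 under the skin (adjusted p = 0.000995) and by 1.19 in the lung (adjusted p = 0.039). The lung rise was lost in 11 of 20 alternatives, among them without dish replicate 2 (adjusted p = 0.14), dish replicate 3 (0.131), subcutaneous replicate 2 (0.0504), lung replicate 2 (0.0925) or lung replicate 3 (0.106), and with the replicate block (0.0574). Cyb5a, the cytochrome b5 that passes electrons to desaturases, rose by 1.55 (adjusted p = 0.00284) under the skin and by 1.84 (adjusted p = 0.00262) in the lung, or 0.0562 with the long-mRNA covariate. Elovl1, an elongase of very long chains, was higher in lung than in subcutaneous cells (1.31, adjusted p = 0.00822, and 0.228 without lung replicates 1 and 2) and higher than in dish cells (1.33, adjusted p = 0.0146). The latter was lost without dish replicate 2 (0.0655), lung replicate 1 (0.078) or lung replicates 1 and 2 (0.293). Hacd3, a dehydratase of the elongation cycle, fell under the skin (-1.33, at least 0.88, adjusted p = 0.00348). It was higher in lung than in subcutaneous cells (0.95, at least 0.50, adjusted p = 0.0232), but not without subcutaneous replicate 1 (0.061), lung replicate 1 (0.109), lung replicate 3 (0.0587) or lung replicates 1 and 2 (0.126). Scd3, a close copy of Scd1, rose by 1.22 with both groups below background, and its separate signal is uncertain. Fads6, the third gene called between the sites, was below background in both groups. Taken alone, lung replicate 3 left the list with 2 calls from dish to lung and 0 between the sites.

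**Figure D5:**
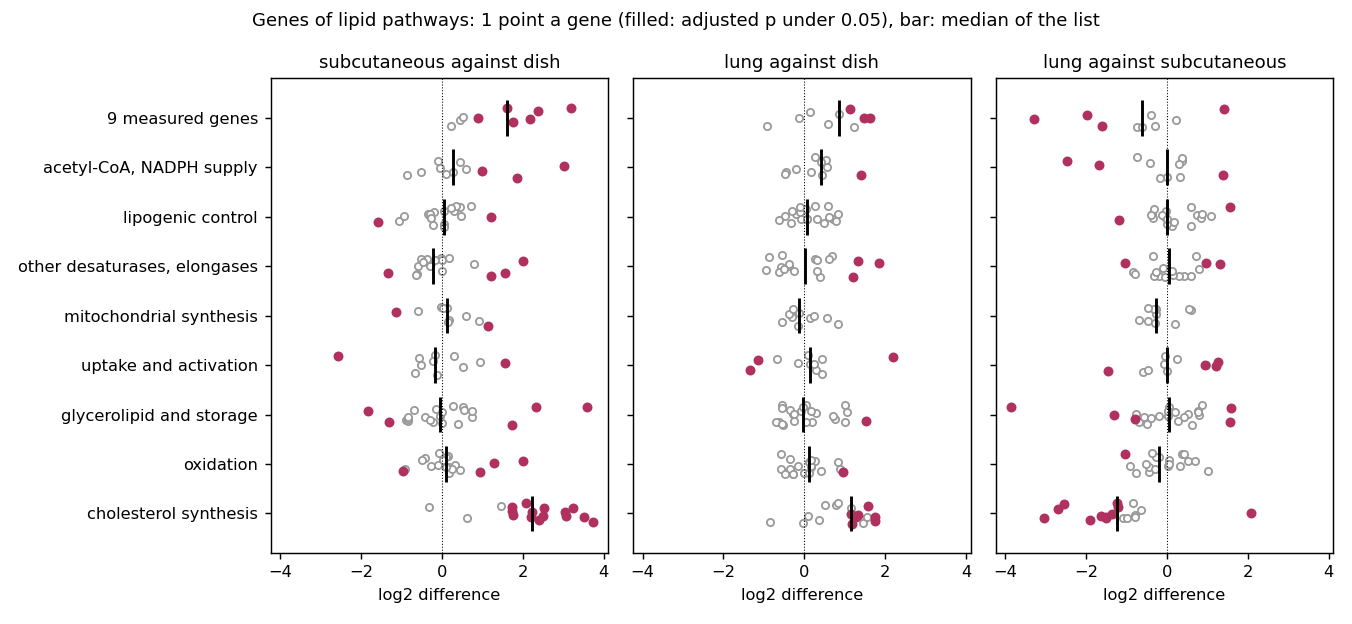
Log2 difference (horizontal axis) of every measured gene in the lipid lists (rows) for the 3 comparisons, filled where the adjusted p was under 0.05, with a bar at the median of the list. The 9 genes and the cholesterol list lie to the right in subcutaneous against dish cells (medians 1.61 and 2.24), and the cholesterol list lies to the left in lung against subcutaneous cells (median -1.24).

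By a fixed rule, the genes outside all lists whose pattern was most like the mean of the 9 centred genes were Dusp10, a MAP kinase phosphatase (Pearson's r = 0.977), the adhesion receptor Adgrg6 (0.976), the mitochondrial carrier Sfxn3 (0.974), the oxysterol-binding protein Osbpl9 (0.974) and the syntaxin-binding protein Stxbp3 (0.972). These r are over the 9 arrays, among 6543 candidate genes, and mostly follow the differences between the 3 groups. Osbpl9 was at 11.47 ± 0.15 in dish, 13.38 ± 0.014 in subcutaneous and 12.36 ± 0.19 in lung cells. Each of the 9 genes was also set against the mean of the other 8 over the arrays. The r was 0.952 for Acly, 0.933 for Fads1, 0.922 for Scd1 and 0.812 for Elovl6. It was lower for Acss2 (0.694, below background), Me1 (0.678), Acaca (0.581) and Fads2 (0.570), and -0.033 for Fasn.

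Some markers of other cells moved with the groups, and in bulk samples a change in the share of cells cannot be told from a change per cell. Of the 7 epithelial genes, Krt8 was above background on all arrays and Krt18 on the subcutaneous arrays and 2 of the lung arrays, whereas Epcam, Krt19, Cdh1, Cldn7 and Nkx2-1 were not well above background in any group. Krt8 rose under the skin by 1.63. Krt18, below background in the dish, rose by at least 3.60 under the skin and at least 0.62 in the lung. Of the 9 fibroblast genes, 3 were above background on all subcutaneous arrays (Lum, Dcn and Dpt). The other 6, Mfap5, Col1a1, Col1a2, Col3a1, Pi16 and Clec3b, were below it on all of them. The summed linear signal of the list was 91053 to 155514 in subcutaneous, 1776 to 16072 in lung and 358 to 420 in dish cells. Of the 10 alveolar type II genes 4 were above background on all lung arrays (Sftpc, Sftpa1, Abca3 and Etv5). On all dish and all subcutaneous arrays 8 were below it. Abca3 was above it on 2 dish arrays and all 3 subcutaneous arrays, and rose under the skin (1.28, adjusted p = 0.0155 in limma). From dish to lung 5 of the 10 were called higher and 0 lower (4.81% and 1.97% of all genes). Sftpc was at least 7.71 above dish cells in the lung, and Sftpa1 at least 2.57. Etv5 was above background on all arrays and not called from dish to lung (-0.34). The sum of the 10 was 28775 to 97041 in lung, 8229 to 9476 in subcutaneous and 10681 to 12937 in dish cells. By array, this sum was 56398, 28775 and 97041 on lung replicates 1, 2 and 3. The part of fibroblasts, alveolar cells, fat cells or the other cell types below in the levels of the 9 genes was not tested. Fat cells are rich in these enzymes. Of the 10 measured adipocyte genes only Fabp4 was above background on any array, and Adipoq, Plin1, Cidec and Lipe were not. The adipocyte sum was 286 to 469 in subcutaneous, 333 to 514 in dish and 239 to 362 in lung cells. All 10 sebocyte and keratinocyte genes and all 7 endothelial genes were below background on all arrays of every group. The sebocyte and keratinocyte sum was 175 to 216 in subcutaneous, 217 to 267 in dish and 217 to 238 in lung cells, and the endothelial sum 125 to 189, 95 to 118 and 121 to 190. Of the 11 monocyte and macrophage genes, 0 were above background in dish or subcutaneous cells and 9 were below it on all lung arrays (sums 265 to 375, 364 to 408 and 317 to 1408 in dish, subcutaneous and lung cells).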

How the data were processed

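RNA of 9 samples was measured on a 1-colour whole-transcript array, after column purification and biotin labelling of fragmented sense cDNA, per the labels' protocols. The authors deposited 1 table of log2 signals (28846 features, range 1.56 to 19.7). For the normalization, the software and the build, the sources used here give nothing. Symbols came from a platform table, which gave 1 symbol to 19572 of 22206 gene features and several to none, leaving 2634 unnamed. For 55 genes with several features the brightest by mean was kept, which left 19505 genes with no filter on level.

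Groups and replicate numbers follow the sample titles. limma 3.58.1 (R 4.3.3) was fitted to all 9 arrays with 3 group means (6 residual and 7.08 prior degrees of freedom). Tests were two-sided. The small number of arrays limits the precision. The script was tested on simulated data. Where a group was under the background guide on all 3 arrays, "at least" gives the brighter mean minus the dimmer group's mean guide value. The 9 measured members and the lists were chosen with earlier results of these data known. All measured members are described. The called genes named from a pathway list come from the up to 4 with the largest difference per comparison, and not all of these are named. Likeness was ranked among genes above the guide on 3 or more arrays. Same-numbered samples did not deviate together, so the numbers pair nothing. Alternatives were quantile and equal-median scaling, a filter on dim genes, an intensity trend with robust fitting, array weights, RIN and the long-mRNA level as covariates, a replicate block, fits of 2 groups, the mean over features and each array left out. The setting without lung replicates 1 and 2 was chosen after seeing the data.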

Additional observations from a re-analysis of the deposited data

Results flagged for a closer look

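The change from dish culture differed between the transplant sites for 4 of the 9 genes, tested as the difference between lung and subcutaneous cells. Of all genes 15.0% were called in this comparison. With the long-mRNA level as a covariate Fads2 kept its call, and Fasn, Scd1 and Fads1 did not. That difference was 1.40 for Fasn, -1.97 for Scd1, -1.61 for Fads1 and -3.28 for Fads2 on the log2 scale. The sites share the dish samples, so the changes from dish are not independent of each other. All 3 arrays of each site lay on 1 side of the other site's arrays for each of these genes. The same held for Acly and for Acss2, which were not called, and the share of all genes without overlap was not counted. In groups of 3, no test for single outlying arrays was made.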

How the results depend on the processing

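Over the 20 alternatives run, the rises of Scd1, Acly, Elovl6, Fads1 and Fads2 from dish to subcutaneous cells and the lower Fads2 in lung than in subcutaneous cells kept their direction and their call. The genes called from dish to lung numbered 1322 with all arrays, 3039 with array weights, 856 with RIN as a covariate, 199 with the long-mRNA covariate, 514 to 1442 with 1 array left out, and 286 without lung replicates 1 and 2. Between lung and subcutaneous cells there were 2927 with all arrays, 859 with the long-mRNA covariate, 1476 to 2928 with 1 array left out and 650 without lung replicates 1 and 2. From dish to subcutaneous cells there were 2513 with all arrays, 1280 with RIN as a covariate and 1639 to 2738 with 1 array left out. The filter on dim genes kept 6667 genes. Of these 2528 (subcutaneous against dish), 1530 (lung against dish) and 2646 (lung against subcutaneous) were called. Of the 9 genes, those called from dish to lung numbered 3 with all arrays, 5 with the filter on dim genes, the intensity trend with robust fitting or array weights, 2 to 4 with 1 array left out, and 0 with the long-mRNA covariate or without lung replicates 1 and 2. Between lung and subcutaneous cells 4 were called with all arrays, 6 with equal medians, 5 with the filter on dim genes, the intensity trend with robust fitting or array weights, 3 or 4 with 1 array left out, and 1 with the long-mRNA covariate or without lung replicates 1 and 2. From dish to subcutaneous cells 6 were called, and 5 or 6 with 1 array left out. The sign turned for 2 differences, neither of them called. Fasn between subcutaneous and dish cells was -0.070 without subcutaneous replicate 1 and at most 0.45 with another array left out. Me1 between lung and dish cells was -0.029 after quantile normalization, -0.09 with equal medians, -0.57 with the long-mRNA covariate and -0.33 without lung replicates 1 and 2. With the replicate block the counts of the 9 genes were 6.0 (subcutaneous against dish), 3.0 (lung against dish) and 4.0 (lung against subcutaneous), and over all genes 2475, 1313 and 2852. Same-numbered samples of different groups correlated at -0.090 to 0.049 in their deviations from group means, so the pairing is not borne out. The cause was not tested, except that settings with fewer arrays test with fewer samples. Acss2 lay below background, and with it the filter on dim genes gives no value.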

Other observations

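The lists on handling of fatty acids after synthesis are set beside the shares of all genes called, 12.9% from dish to subcutaneous cells, 6.78% from dish to lung and 15.0% between the sites. Of 11 measured uptake and activation genes, 1 rose and 1 fell from dish to subcutaneous cells, 1 rose and 2 fell from dish to lung, and 3 were higher and 1 lower in lung than in subcutaneous cells (medians -0.16, 0.14 and 0.01). The carrier Fabp5 was at 12.58 ± 0.20 (SD, n = 3) in dish, 10.01 ± 0.25 in subcutaneous and 11.23 ± 0.23 in lung cells. Acsl4, which activates polyunsaturated fatty acids, rose by 1.55 under the skin (adjusted p = 0.00743, limma) and was lower in lung than in subcutaneous cells (-1.46, adjusted p = 0.0109, and 0.152 without lung replicates 1 and 2). The scavenger receptor Cd36 was called higher in the lung with signals below background in all groups. On lung replicate 3 taken alone, 0 of the 11 were called against either other group.

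Of 23 glycerolipid and storage genes, 3 rose and 2 fell from dish to subcutaneous cells, 1 rose and 0 fell from dish to lung (5 higher and 1 lower at an unadjusted p under 0.05 in limma), and 2 were higher and 3 lower in lung than in subcutaneous cells (medians -0.04, -0.03 and 0.04). Lpin1, the phosphatidate phosphatase, was at 8.88 in subcutaneous cells and below background at both other conditions, at least 1.46 above dish cells (adjusted p = 9.53e-06) and at least 1.62 above lung cells (adjusted p = 1.52e-05). The acyltransferase Gpat4 was lower under the skin than in the dish (-1.82, adjusted p = 0.000429) and higher in lung than in subcutaneous cells (1.56, adjusted p = 0.0016). Agpat4, another acyltransferase, rose by 2.32 (adjusted p = 0.000668) under the skin, and the lipase Pnpla2 by 1.73 (adjusted p = 0.00112). With lung replicate 3 alone, 0 of the 23 were called against dish and 2 against subcutaneous cells. In the oxidation list of 19, 3 rose and 1 fell under the skin, 1 rose in the lung, and 1 was lower in lung than in subcutaneous cells (medians 0.11, 0.12 and -0.20). Cpt2, the mitochondrial carnitine palmitoyltransferase, rose by 2.00 under the skin (adjusted p = 0.000209). The total of 4 under the skin was 1 without dish replicate 2 or subcutaneous replicate 2, 2 without dish replicate 1, subcutaneous replicate 1 or subcutaneous replicate 3 or with RIN as a covariate, and 3 with lung replicate 3 alone. The gene that rose in the lung was also Cpt2 (0.96, adjusted p = 0.0378), a call lost in 11 of 20 alternatives, with any lung array, dish replicate 2 or dish replicate 3 left out, with either scaling, either covariate or the replicate block (0.0573), and without lung replicates 1 and 2 (0.25). Cpt2 was the gene lower in lung than in subcutaneous cells as well (-1.05, adjusted p = 0.0139), but not without subcutaneous replicate 2 (0.0532), lung replicate 1 (0.0658) or lung replicates 1 and 2 (0.218), nor with the long-mRNA covariate (0.131). With lung replicate 3 alone, the oxidation list had 0 calls against dish cells and 1 against subcutaneous cells, which was not Cpt2. Of 10 mitochondrial fatty acid synthesis genes, 1 rose and 1 fell under the skin, with 0 called without dish replicate 1, subcutaneous replicate 1 or subcutaneous replicate 2. By limma 0 were called in the other comparisons, with 2 from dish to lung and 0 between the sites at an unadjusted p under 0.05, and 0 were called in either with lung replicate 3 alone.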
